A study of Mus musculus with 18 samples.

Results

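The genes described here are 8 components of the pathway that carries the leukemia inhibitory factor (LIF) signal in mouse embryonic stem cells, chosen by name and matched to the deposited files by mouse Entrez identifier, out of 36528 genes in all. They are the receptor genes Lifr and Il6st, the kinase genes Jak1 and Jak2, the transcription factor gene Stat3, the inhibitor gene Socs3 and the kinase genes Pim1 and Pim3. All 8 were matched, all 8 passed the filter on low counts, and each library gave every one of them at least 69 counts. The study measured polyadenylated RNA in 18 libraries, 3 in each of 6 groups, all at day 4. It set out to compare cells that lose BAP1, a deubiquitinase acting on histone H2A, with cells that carry its C91A form or lose RNF2, an H2A ubiquitin ligase, as well. The groups were BAP1 wild type (WT_D4), the BAP1 knockout line left untreated (cKO_D4), the same line after 4-hydroxytamoxifen (cKO_D4_4OHT, the BAP1 knockout), the C91A line left untreated (C91A_D4), that line after the drug (C91A_D4_4OHT, the knock-in C91A mutant), and the RNF2-BAP1 double knockout with the drug (dKO_D4_4OHT). The drug, at 100 nM, induces Cre, so each comparison of a treated with an untreated line also contains the drug and Cre themselves. Whether wild-type cells received it was not given in the sources used here. Every group received emricasan, an inhibitor of caspases, so all levels were read in cells shielded from caspase-dependent death. Labels do not say whether the 3 libraries of a group came from separate cultures, nor whether a line is a single clone, so p-values measure only the spread between these libraries, which may be technical.

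LIF binds a receptor made of LIFR and the shared signalling chain encoded by Il6st. JAK kinases bound to the receptor then phosphorylate STAT3, which enters the nucleus and activates genes, among them its own inhibitor Socs3 and the serine/threonine kinase genes Pim1 and Pim3. In mouse embryonic stem cells grown with LIF this route sustains self-renewal, and SOCS3 limits it by blocking the JAK kinases and the receptor. Transcript levels do not report phosphorylation, so the values below concern the amount of mRNA and not the activity of STAT3.

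Upstream sequences of members that moved in opposite directions, and of the negative regulator, are shown so that they can be set beside the values. The RefSeq promoter table for GRCm38.p6 held 10 windows for the 8 genes, each of 250 bases before to 50 after an annotated start. In the lines printed here, 5′ to 3′ on the gene's strand, capitals mark matches to CCAAT (read on either strand, so also ATTGG) and to the STAT-type motif TTCNNNGAA. Il6st is transcribed from the plus strand and the stretch is chr13:112463820-112464069. Stat3 lies on the minus strand and its stretch is chr11:100939541-100939790. For Pim1, on the plus strand, the stretch is chr17:29490535-29490734 and holds neither motif. For Socs3, on the minus strand, the 30 bases around its TTCNNNGAA match are shown, at chr11:117969501-117969530. By the gene spans given below, this Socs3 stretch lies inside the gene and the Stat3 stretch partly does. The Lifr windows, not printed, lie inside its span as well. Their annotated starts are thus not the outermost ends of these spans.
Il6st: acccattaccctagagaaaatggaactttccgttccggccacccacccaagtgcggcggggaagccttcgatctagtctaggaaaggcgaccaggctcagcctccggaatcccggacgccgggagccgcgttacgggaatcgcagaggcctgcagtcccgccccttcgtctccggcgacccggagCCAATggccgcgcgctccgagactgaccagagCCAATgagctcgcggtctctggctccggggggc
Stat3: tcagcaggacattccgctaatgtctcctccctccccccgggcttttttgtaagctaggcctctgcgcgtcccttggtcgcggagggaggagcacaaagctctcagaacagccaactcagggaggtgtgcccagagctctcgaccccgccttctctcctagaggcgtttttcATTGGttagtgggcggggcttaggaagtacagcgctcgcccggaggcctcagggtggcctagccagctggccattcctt
Pim1: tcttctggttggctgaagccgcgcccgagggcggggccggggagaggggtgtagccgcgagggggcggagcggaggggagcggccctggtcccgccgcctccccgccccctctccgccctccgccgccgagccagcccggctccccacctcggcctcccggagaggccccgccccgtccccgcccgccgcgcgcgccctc
Socs3: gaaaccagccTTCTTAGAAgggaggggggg
The TTCNNNGAA motif was found in the windows of 1 of the 8 genes, Socs3, against 7.95% of the 12307 tested genes with a window. CCAAT was found for 5 of the 8 genes against 42.6% of tested genes. The motif GGGCGG, on either strand, was found for all 8 against 66.7%. A match describes letters in the window and says nothing of binding in these cells.

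Per gene length, on the authors' deposited RPKM scale, the levels of the 8 genes spread widely and kept nearly the same order in every group. Pim1 stood highest with a mean of 222 RPKM over the 18 libraries, followed by Pim3 at 150. Socs3 averaged 40.3, Stat3 31.5 and Jak1 23.4. The receptor chains were lower, with Il6st at 15.5 and Lifr at 5.66, and Jak2 was the lowest at 1.89. Jak1 mRNA was thus the more abundant of the 2 kinases in all groups. Stat3 lay above Socs3 in wild type and below it in 4 other groups, and in the C91A mutant their libraries overlapped (means 36.4 and 35.9). In the double knockout the Pim1 mean, 158.0, and the Pim3 mean, 158.2, could not be separated, since their libraries overlapped.

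**Figure D1:**
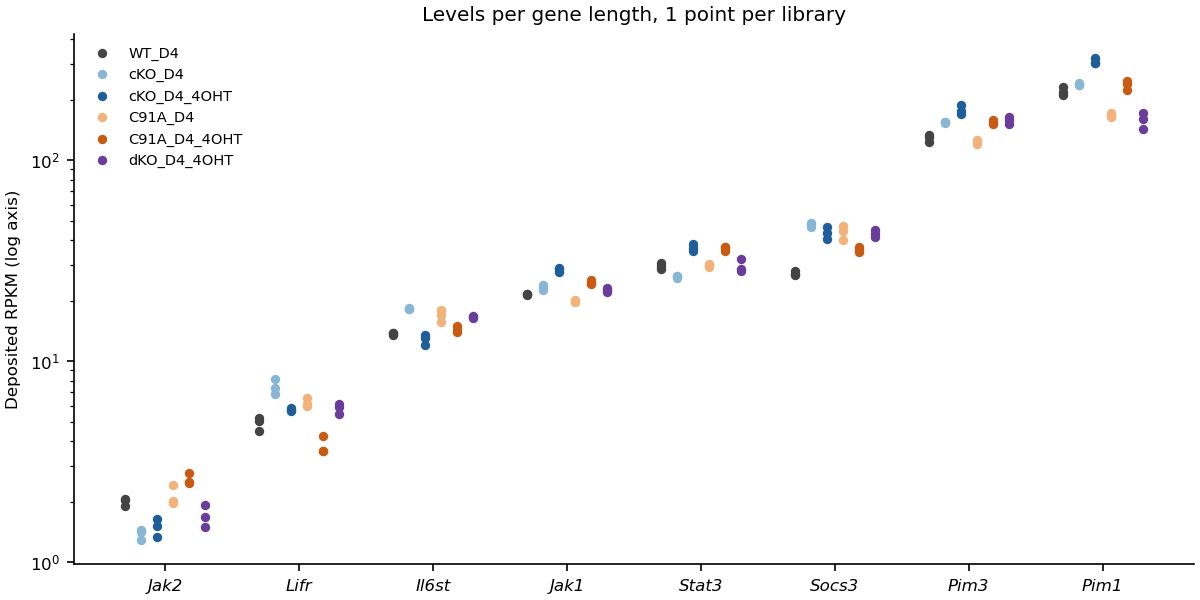
Deposited RPKM of the 8 genes on a log axis, 1 point per library and 1 colour per group, with genes ordered by their mean. Pim1 and Pim3 lie near the top, Jak2 lies near 1.89, and the points of Socs3 and Stat3 lie at similar heights.

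Library totals ran from 8.11 to 23.0 M counts (M, mega), lowest in the BAP1 knockout group (mean 12.7 M), which includes the shallowest library, knockout replicate 2. Bap1 fell slightly after knockout (log2 fold change -0.17, SE 0.05, adjusted p = 0.0027, edgeR's quasi-likelihood test) and Rnf2 was lower in the double than in the single knockout (-0.73, SE 0.06, adjusted p = 1.5e-13). Bap1 itself differed most in the untreated C91A line, at 88.9 CPM (CPM, counts scaled to a library of 1 M counts) on average against 178 in wild type (-1.01, SE 0.05, adjusted p = 6e-20), and the C91A mutant stood at 165 CPM (0.89 against its untreated line, SE 0.05, adjusted p = 8.3e-19). The C91A comparison thus starts from cells with less Bap1 mRNA than wild type. Since whole genes were counted, these values check a deletion of some exons only in part. Stem cell markers (Pou5f1, Nanog, Sox2 and 4 others) summed to 2316 to 3727 CPM per library, lowest in the C91A mutant at 2316 to 2347. Of the 7, 6 fell and 1 rose after BAP1 knockout, and 7 fell in the C91A mutant. For these and the marker counts that follow, 31.3% of all tested genes rose and 30.3% fell after knockout. In the mutant 28.6% rose and 26.4% fell. Summed fibroblast markers went from 25.9 to 26.3 CPM in the untreated knockout line to 46.8 to 50.5 after knockout. They went from 27.9 to 29.5 in the untreated C91A line to 64.7 to 66.2 in the mutant. In the double knockout they stood at 80.4 to 82.4. Lum was at 0 there and at most 0.09 CPM in any library. Of the 7 tested among 8, 3 rose after knockout, and 5 rose and 1 fell in the mutant. Primitive endoderm markers summed to 12.04 to 14.1 and 19.95 to 21.2 CPM before and after knockout, to 19.5 to 20.4 and 31.2 to 32.9 for the C91A line and mutant, and to 52.1 to 56.3 in the double knockout. Their 7 tested members gave 5 that rose after knockout and 3 that rose in the mutant, and none fell. Summed macrophage markers, of which Cd68 made up nearly all, stood at 57.0 to 58.8 and 137 to 149 CPM before and after knockout, at 61.4 to 68.8 and 131 to 143 in the C91A line and mutant, and at 38.3 to 46.9 in the double knockout. Of 5, 3 were tested, 2 rose after knockout, and 2 rose and 1 fell in the mutant. The markers Ptprc and Adgre1 were near 0 in every group, with no library above 0.08 RPKM. Ptprc was at 0 in all knockout libraries, and Adgre1 in all of wild type and the untreated C91A line. The part of these markers' cells in the results below was not tested. In RNA from whole cultures, fewer cells of a type and less RNA per cell cannot be told apart.

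Loss of BAP1 and the C91A form were each set against the untreated cells of their own line, and the 2 comparisons share no library. After either, the receptor genes and Socs3 fell while Stat3, Jak1, Pim1 and Pim3 rose. Of the 8 genes, 4 rose, 3 fell and 1 did not pass the test after BAP1 knockout, where 61.6% of the 16875 genes tested passed in either direction. In the C91A mutant 5 rose and 3 fell, where 55% of all genes passed. The ranges of the 3 treated and 3 untreated libraries did not overlap for 7 of the 8 genes after knockout and for all 8 in the mutant, against 66.3% and 58.6% of all genes. Libraries of a group differed little, with a coefficient of variation beyond counting noise of 4.47%, edgeR's 1 shared estimate for all genes. With such shares over all genes a pass sets no member apart. The 7 members that passed for both alleles moved the same way, as did 94.8% of the 7159 genes of the whole table that passed for both. Every change was below 2-fold, a size that 15.3% of all tested genes reached and passed after knockout and 11.1% in the mutant. The median log2 fold change of the 8 genes was 0.14 after knockout and 0.28 in the mutant, against -0.01 and -0.01 over all genes. Levels given from here on are CPM with the trimmed-mean (TMM) scaling, fold changes are log2, and adjusted p-values are edgeR's with Benjamini-Hochberg adjustment over all 16875 genes.

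**Figure D2:**
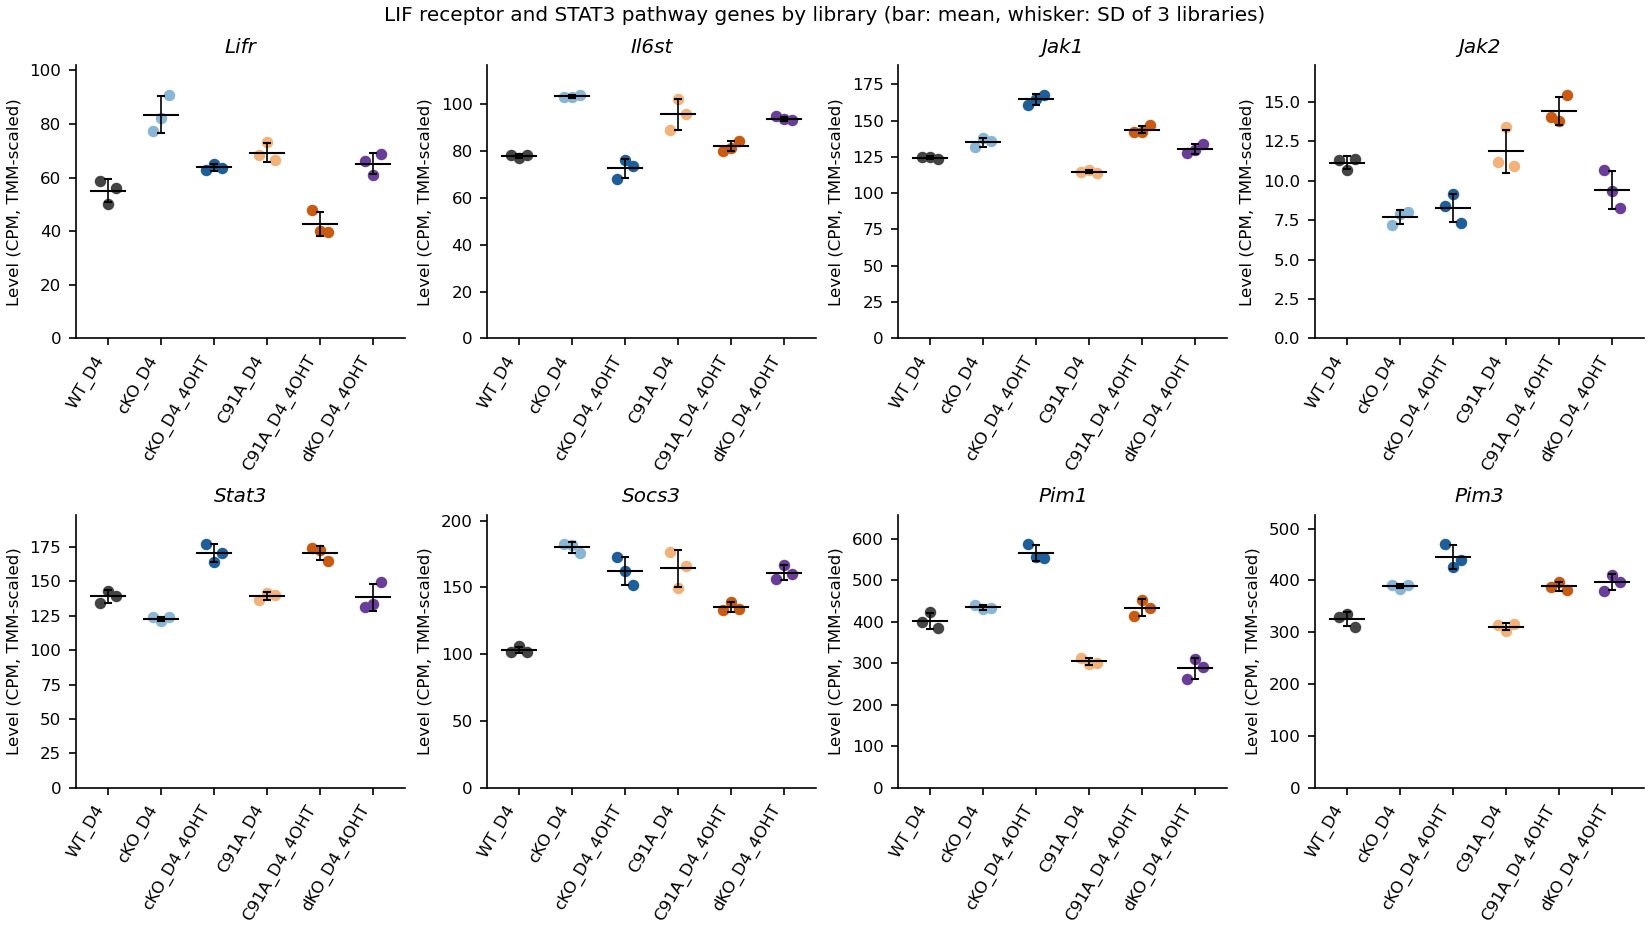
CPM of each gene in each library (points), with the mean (bar) and SD (whisker) of the 3 libraries of a group. Lifr, Il6st and Socs3 are lower in both drug-treated single mutants than in their own untreated lines, while Jak1, Stat3, Pim1 and Pim3 are higher.

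Lifr, the chain that gives the receptor its specificity for LIF (chr15:7090610-7197489, GRCm38.p6), was at 77.2, 82.0 and 90.9 CPM in the untreated knockout line and at 62.8, 65.0 and 63.4 after knockout. All knockout libraries were below all those of the untreated line, and the fitted change was -0.39 (SE 0.07, adjusted p = 4.6e-06). In the untreated C91A line the libraries gave 68.2, 73.1 and 66.4 CPM, and in the mutant 47.8, 40.2 and 39.7. The mutant libraries were again all lower, by a larger amount (-0.71, SE 0.07, adjusted p = 1.8e-11). This was the largest fitted change of any of the 8 genes in these comparisons of an allele with its own line. Wild type stood at 58.7, 50.3 and 56.2 CPM, between the C91A mutant and the knockout.

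Il6st, the signalling chain that LIF shares with interleukin-6 and related cytokines (chr13:112464070-112506860), was at 102.9, 103.3 and 104.1 CPM in the untreated knockout line and at 68.2, 76.2 and 73.6 after knockout. The groups were far apart relative to their spread, and the gene fell by 0.51 on the log2 scale (SE 0.05, adjusted p = 5.6e-11), the strongest decrease among the 8 genes in this comparison. In the untreated C91A line it was at 89.0, 102.2 and 95.9 CPM and in the mutant at 80.2, 81.5 and 84.3. It fell there too, by 0.23 (SE 0.05, adjusted p = 0.00028), and the ranges did not meet. Wild-type libraries gave 78.4, 76.8 and 78.3 CPM. All of these were below every library of both untreated lines.

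Jak1, the kinase associated with Il6st protein (chr4:101151974-101265282), was at 131, 138 and 136 CPM in the untreated knockout line and at 161, 165 and 168 after knockout. Every knockout library exceeded every untreated library (0.29, SE 0.04, adjusted p = 3.3e-07). In the C91A line the values were 114, 116 and 114 CPM untreated and 142, 142 and 147 in the mutant. The rise there, 0.32 (SE 0.04, adjusted p = 3.6e-08), was of about the same size. Jak1 in wild type lay at 125, 125 and 123 CPM.

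Jak2, a related receptor-bound kinase (chr19:29251803-29313095), is the least expressed of the 8 genes and carried the widest error. Its libraries gave 7.16, 7.89 and 8.02 CPM in the untreated knockout line and 8.37, 9.12 and 7.34 after knockout, and these overlapped. The difference, 0.08 (SE 0.13, adjusted p = 0.61), did not pass. In the C91A line Jak2 was at 11.2, 13.4 and 10.9 CPM untreated and at 14.0, 13.8 and 15.4 in the mutant. That rise of 0.27 (SE 0.11, adjusted p = 0.028) did not pass in 6 of 12 alternative analyses. Among them were leaving out replicate 1 (0.23, adjusted p = 0.093) or replicate 3 (0.22, adjusted p = 0.12) of the untreated line, and leaving out replicate 3 of the mutant (0.20, adjusted p = 0.17). Others were DESeq2 (0.27, adjusted p = 0.067), no filter on low counts (0.26, adjusted p = 0.05) and libraries thinned to equal depth (0.21, adjusted p = 0.25).

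Stat3, the transcription factor of the route (chr11:100886806-100939594), was at 124, 121 and 124 CPM in the untreated knockout line and at 177, 164 and 171 after knockout. The lowest knockout library was well above the highest untreated one, and the gene rose by 0.48 (SE 0.05, adjusted p = 3e-11), the largest increase among the 8 genes in this comparison. In the C91A line the libraries were at 137, 142 and 139.8 CPM untreated and at 174, 173 and 165 in the mutant, a rise of 0.29 (SE 0.05, adjusted p = 1.8e-06). Means after treatment were 170.7 CPM for the knockout and 170.6 for the mutant, with overlapping libraries, from untreated means of 123 and 139. Wild-type libraries had 134, 143 and 139.5 CPM. In the GENCODE M21 annotation 72 of the 9527 exonic bases of Stat3 overlap exons of Stat5a on the other strand, and reads from them cannot be told apart because strand use in counting is not given.

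Socs3, the feedback inhibitor of the receptor and its kinases (chr11:117966079-117970336), was at 183, 182 and 176 CPM in the untreated knockout line and at 173, 162 and 152 after knockout. The groups came close without meeting, and the decrease of 0.15 (-0.15, SE 0.05, adjusted p = 0.011) did not pass when knockout replicate 3 was left out (-0.10, adjusted p = 0.15). In the C91A line it was at 177, 149.6 and 166 CPM untreated and at 133, 139 and 134 in the mutant. Here it fell by 0.28 (SE 0.05, adjusted p = 1.7e-05), with no overlap. Wild type was far lower than all other groups, at 102, 106 and 102 CPM. Socs3 and Stat3 mRNA therefore moved in opposite directions in both allele comparisons.

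Pim1, a serine/threonine kinase gene activated by STAT3 (chr17:29490785-29496111), was at 441, 430.3 and 434 CPM in the untreated knockout line and at 588, 556 and 553 after knockout. The knockout libraries were all higher (0.38, SE 0.05, adjusted p = 4.1e-09). In the C91A line the values were 314, 299 and 300.5 CPM untreated and 413, 453 and 434 in the mutant, and the rise was 0.51 (SE 0.05, adjusted p = 3.7e-12). It was the largest increase among the 8 genes in the mutant, although it ended at about the level from which the knockout line had started. Wild-type libraries stood at 399, 423 and 385 CPM. Of the 3362 exonic bases of Pim1, 488 overlap an annotated antisense gene, Gm26885, so part of its count could belong to either strand.

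Pim3, its close relative (chr15:88862194-88865726), was at 390.3, 384 and 392 CPM in the untreated knockout line and at 471, 426 and 439.6 after knockout. It rose by 0.20 (SE 0.04, adjusted p = 1e-04), less than Pim1. In the C91A line it was at 314, 303 and 315 CPM untreated and at 387, 397 and 381 in the mutant, a rise of 0.32 (SE 0.04, adjusted p = 1.9e-08). Neither comparison had overlapping libraries. Wild type gave 329, 336 and 310.0 CPM.

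**Figure D3:**
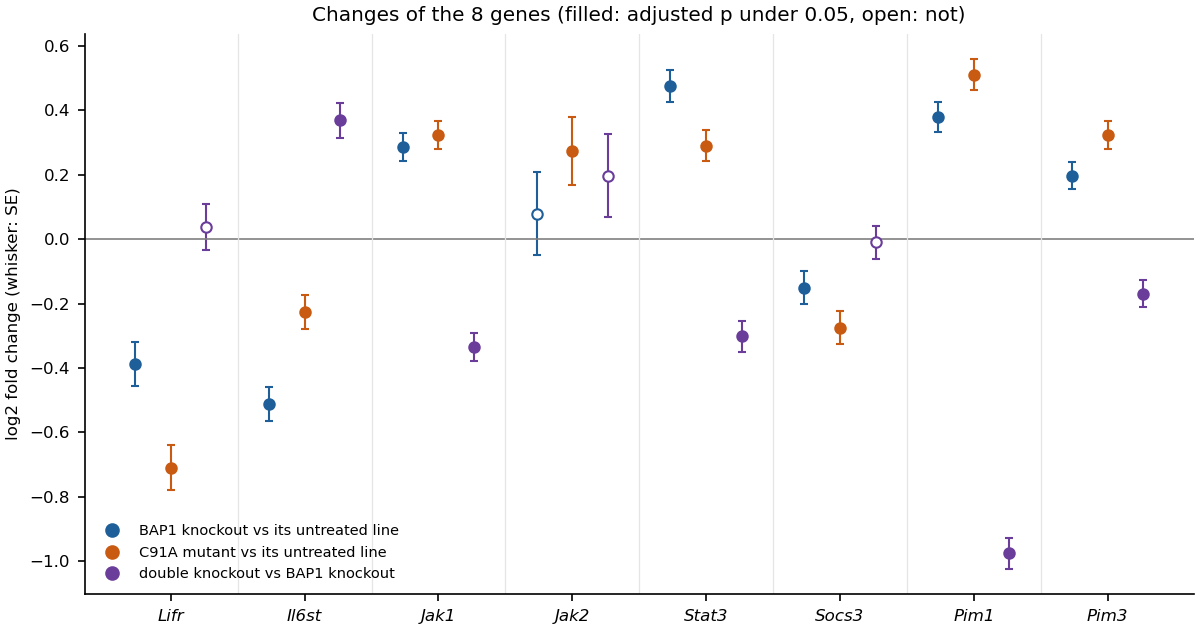
Log2 fold changes with their SE for BAP1 knockout and the C91A mutant, each against its own untreated line. Another colour gives the double knockout against the BAP1 knockout. Filled points passed the test and open points did not. Lifr, Il6st and Socs3 lie below 0 for both alleles and Jak1, Stat3, Pim1 and Pim3 above 0. Among the values of both alleles, only Jak2 after knockout, 0.08, did not pass. In the double knockout against the knockout, Lifr, Jak2 and Socs3 did not pass.

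Whether the effects of knockout and C91A differed was tested directly, as the difference between both effects. For 3 of the 8 genes the difference passed, where 25.9% of all genes passed. Il6st fell more after knockout than in the mutant (difference -0.28, SE 0.07, adjusted p = 0.0036; at equal depth it did not pass, adjusted p = 0.054). Lifr fell more in the mutant (0.32, SE 0.10, adjusted p = 0.013). The receptor chains thus differed between the alleles in opposite directions. Stat3 rose more after knockout (0.19, SE 0.07, adjusted p = 0.039), but this difference did not pass in 10 of 18 alternatives. It was lost without the low-count filter (0.17, adjusted p = 0.10) and when 9 of the 12 libraries were left out in turn, with values from 0.16 to 0.19. Those libraries were replicates 1, 2 and 3 of the untreated knockout line, 1 and 3 of the knockout, 2 and 3 of the untreated C91A line, and 2 and 3 of the mutant. The other 5 genes gave differences from -0.19 (Jak2, SE 0.17) to 0.13 (Socs3, SE 0.07) that did not pass. Of these, Socs3 passed when replicate 2 of the untreated C91A line was left out (0.19, adjusted p = 0.039), and Pim3 when knockout replicate 1 was left out (-0.17, adjusted p = 0.045).

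Next, the double knockout was compared with the BAP1 knockout, which addresses the further loss of RNF2. No untreated cells of the double knockout line were analysed here, so loss of RNF2 and any difference between the lines cannot be told apart. This comparison uses the knockout libraries of the effect described above, so directions in the 2 are not independent. Il6st rose, Jak1, Stat3, Pim1 and Pim3 fell, and Lifr, Jak2 and Socs3 did not pass, in a comparison in which 63.2% of all genes passed. Library ranges were apart for 5 of the 8 genes, against 65.3% of all genes. Pim1 was at 262, 311 and 291 CPM in the double knockout, below every other group but the untreated C91A line, whose libraries it overlapped. It fell by 0.97 against the knockout (SE 0.05, adjusted p = 7.3e-21), the largest change of any of the 8 genes in all 9 comparisons. Pim3, at 381, 411 and 397 CPM, fell by 0.17 (SE 0.04, adjusted p = 0.00069). All double knockout libraries of both genes were below all knockout libraries.

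Il6st in the double knockout was at 94.7, 93.5 and 93.2 CPM, all above the knockout libraries (0.37, SE 0.05, adjusted p = 1.5e-07). Jak1, at 127, 129.9 and 134 CPM, fell by 0.33 (SE 0.04, adjusted p = 1.6e-08). Stat3, at 132, 134 and 149.8 CPM, fell by 0.30 (SE 0.05, adjusted p = 1e-06). The means of these 3 genes therefore lay nearer to those of the untreated knockout line in the double knockout than in the knockout. Lifr, at 66.0, 60.8 and 68.6 CPM (0.04, SE 0.07, adjusted p = 0.65), overlapped with the knockout. Socs3 overlapped as well, at 156, 167 and 160.2 CPM (-0.01, SE 0.05, adjusted p = 0.88). Jak2 was at 10.7, 9.32 and 8.25 CPM (0.20, SE 0.13, adjusted p = 0.18).

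Wild type served as a second reference, and all comparisons with it share the same 3 wild-type libraries. The untreated lines already differed from wild type: 5 of the 8 genes were higher and 2 lower in the untreated knockout line (39.3% of all genes passed, 18.5% higher and 20.8% lower), and 3 were higher and 2 lower in the untreated C91A line (27.6% passed, 13.4% higher and 14.2% lower). Ranges were apart from those of wild type for 8 and 5 of the 8 genes, against 49.3% and 38.1% of all genes. Markers differed from wild type in the same libraries. All 7 primitive endoderm markers were lower in the untreated knockout line and 6 in the untreated C91A line, with wild-type sums of 33.4 to 35.3 CPM. Of 7 tested fibroblast markers 3 were lower in the knockout line, and 5 were lower and 1 higher in the C91A line, with wild-type sums of 43.1 to 45.0 CPM. Of 7 stem cell markers 5 were higher in the knockout line, and 3 were higher and 1 lower in the C91A line. Socs3 was higher in both, by 0.80 (SE 0.05, adjusted p = 1.1e-16) and 0.67 (SE 0.05, adjusted p = 1.5e-13). Lifr was higher by 0.60 (SE 0.07, adjusted p = 5.3e-10) and 0.34 (SE 0.07, adjusted p = 0.00014), and Il6st by 0.41 (SE 0.05, adjusted p = 9.6e-09) and 0.30 (SE 0.05, adjusted p = 1.3e-05). Stat3 was lower than wild type in the knockout line (-0.18, SE 0.05, adjusted p = 0.0024) and not separable in the C91A line (0.00, SE 0.05, adjusted p = 0.97). Jak2 was lower in the knockout line (-0.53, SE 0.11, adjusted p = 0.00014) and stood at 0.11 (SE 0.11, adjusted p = 0.50) in the C91A line. Pim1 stood at 0.11 in the knockout line (SE 0.05, adjusted p = 0.052), which passed in 4 of 12 alternatives, among them without wild-type replicate 2 (0.15), and was lower in the C91A line (-0.40, SE 0.05, adjusted p = 1.1e-08). Pim3 was higher in the knockout line (0.26, SE 0.04, adjusted p = 3.1e-06) and not separable in the C91A line (-0.07, SE 0.04, adjusted p = 0.26). Jak1 passed narrowly, higher in the knockout line (0.12, adjusted p = 0.026) and lower in the C91A line (-0.11, adjusted p = 0.044), and these calls were lost in 5 and 10 of 12 alternatives. In the knockout line Jak1 did not pass without wild-type replicate 2 or 3 or line replicate 2 or 3 (0.10 to 0.12), and in the C91A line without any single library of the 6 (-0.12 to -0.11).

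Against wild type, the knockout and the C91A mutant had 6 genes higher and 1 lower each, where 62.9% (30.9% higher, 31.9% lower) and 58.3% (29.9% higher, 28.5% lower) of all genes passed. Ranges did not overlap with wild type for 8 and 7 of the 8 genes, against 65.3% and 62.1% of all genes. Jak1, Stat3, Socs3 and Pim3 were higher in both. Socs3 stood 0.65 above wild type after knockout (SE 0.05, adjusted p = 4.6e-14) and 0.39 in the mutant (SE 0.05, adjusted p = 2.5e-08). Pim3 stood 0.46 above (SE 0.04, adjusted p = 2.4e-12) and 0.26 above (SE 0.04, adjusted p = 1.5e-06), and Stat3 0.30 and 0.29 (SE 0.05 and 0.05, adjusted p = 1.1e-06 and 1.1e-06). Jak1 stood 0.40 (SE 0.04, adjusted p = 1.4e-10) and 0.21 (SE 0.04, adjusted p = 6.3e-05) above wild type.

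Lifr and Jak2 lay on opposite sides of wild type in the 2 mutants. Lifr was higher after knockout (0.21, SE 0.07, adjusted p = 0.0085), a call lost at equal depth (0.16, adjusted p = 0.077) and without wild-type replicate 2 (0.15, adjusted p = 0.079). It was lower in the C91A mutant (-0.37, SE 0.07, adjusted p = 1.8e-05). Jak2 was lower after knockout (-0.45, SE 0.12, adjusted p = 0.0014) and higher in the mutant (0.38, SE 0.11, adjusted p = 0.0021; 0.26 with adjusted p = 0.16 at equal depth). The untreated knockout line was also below wild type for Jak2, whereas Lifr in untreated C91A cells exceeded its wild-type level. Pim1 was higher after knockout (0.49, SE 0.05, adjusted p = 5.4e-12). In the mutant Pim1 passed at 0.11 (SE 0.05, adjusted p = 0.046) with overlapping libraries and lost the call in 9 of 12 alternatives, among them leaving out replicate 1 or 3 of wild type or replicate 2 or 3 of the mutant (0.08 to 0.10). Il6st did not pass in either, at -0.10 (SE 0.05, adjusted p = 0.10) and 0.08 (SE 0.05, adjusted p = 0.21).

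The double knockout had 4 of the 8 genes above wild type and 2 below, where 53.3% of all genes passed (26.2% higher, 27.1% lower). Ranges did not overlap for 6 of the 8 genes, against 57.1% of all genes. Socs3 was higher by 0.64 (SE 0.05, adjusted p = 6.1e-14), Pim3 by 0.29 (SE 0.04, adjusted p = 2.3e-07), Il6st by 0.27 (SE 0.05, adjusted p = 2.3e-05) and Lifr by 0.25 (SE 0.07, adjusted p = 0.0017). Pim1 was lower (-0.48, SE 0.05, adjusted p = 1.8e-11). Jak2 passed at -0.26 (SE 0.11, adjusted p = 0.048) but its libraries overlapped those of wild type and it kept the call in 1 of 12 alternatives. Leaving out wild-type replicate 1, 2 or 3 or double knockout replicate 2 or 3 gave -0.29 to -0.15 with no call. Stat3 stood at -0.00 (SE 0.05, adjusted p = 0.96) and Jak1 at 0.07 (SE 0.04, adjusted p = 0.17). Socs3 was the only one of the 8 genes called higher than wild type in all 5 other groups, and none of their libraries was as low as the highest wild-type library.

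**Figure D4:**
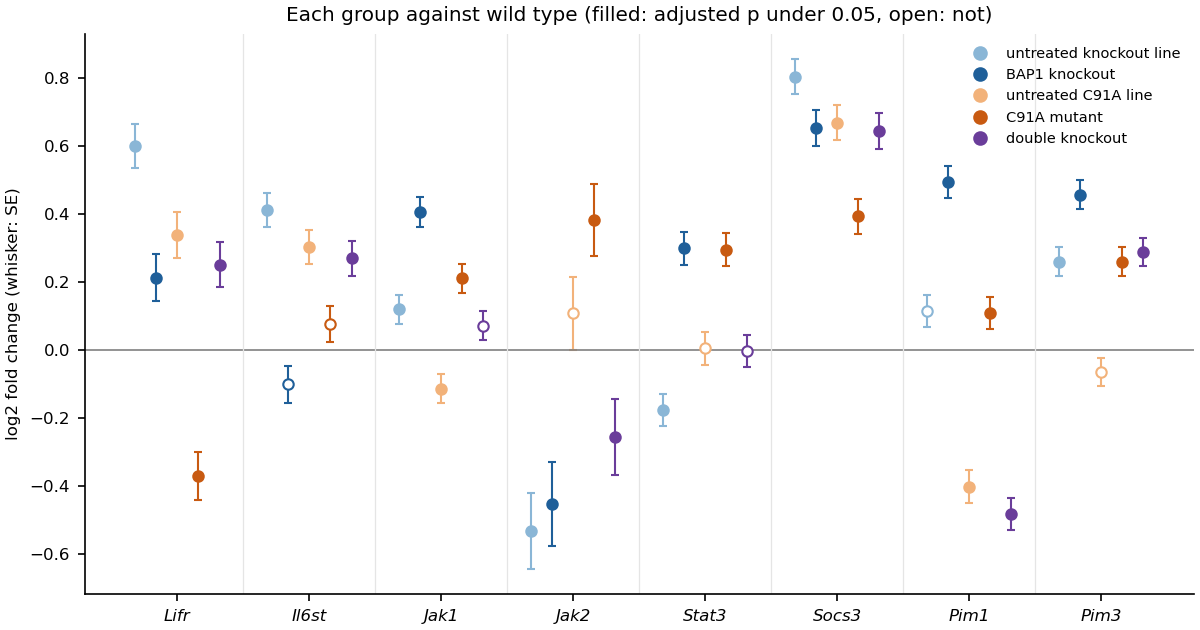
Log2 fold changes with their SE against wild type for the 5 other groups, which share the wild-type libraries; filled points passed the test and open points did not. Socs3 lies above 0 in every group, from 0.39 to 0.80, while each of the other 7 genes has values on both sides of 0.

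Over the 6 groups the mean log2 levels of Pim1 spanned 0.98 and those of Lifr 0.97, followed by Jak2 at 0.90 and Socs3 at 0.80. The spans of Jak1, Pim3, Il6st and Stat3 were 0.52, 0.52, 0.51 and 0.47. From lowest to highest, Lifr ran from the C91A mutant through wild type to the knockout, the double knockout, the untreated C91A line and the untreated knockout line, and the knockout and double knockout overlapped, as did the double knockout and the untreated C91A line. Pim1 ran from the double knockout through the untreated C91A line, wild type, the C91A mutant and the untreated knockout line to the knockout. Only the steps from the untreated C91A line to wild type and from the untreated knockout line to the knockout had no overlap. For Jak2, only the step up to the C91A mutant was free of overlap. Neighbouring groups of Stat3 overlapped among the double knockout, wild type and the untreated C91A line, and between both treated single mutants. The rule for naming genes of like pattern asked for a span of at least 1, which none of the 8 genes reached.

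The other genes of the pathway, from 4 lists, gave 43 tested of 46. After BAP1 knockout 11 rose and 23 fell, with a median log2 fold change of -0.33, against 31.3% of all genes that rose and 30.3% that fell. In the C91A mutant 11 rose and 16 fell (28.6% and 26.4% of all genes). In the double knockout against the knockout 20 rose and 12 fell (32.6% and 30.6% of all genes). All 23 that passed for both alleles moved the same way, as did 94.8% of all genes that passed for both.

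Among ligands and other receptors of the family, 1 of 10 rose and 5 fell after knockout (31.3% and 30.3% of all genes). In the mutant 2 rose and 2 fell (28.6% and 26.4% of all genes). Lif itself was low, at 11.4, 14.1 and 12.4 CPM in the untreated knockout line and 11.3, 7.80 and 9.87 after knockout. Its decrease (-0.36, SE 0.13, adjusted p = 0.014) was lost when replicate 2 of either group was left out (-0.28 to -0.27). Cntfr, the receptor subunit for ciliary neurotrophic factor, which signals through the same chains as LIF, rose for both alleles (1.36, SE 0.07, adjusted p = 2.8e-19, and 1.28, SE 0.07, adjusted p = 1.1e-18). Its libraries went from 21.5, 21.8 and 19.7 CPM to 54.5, 51.3 and 55.1 after knockout. From the single to the double knockout it fell (-0.68, SE 0.07, adjusted p = 8.7e-11).

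Of the 8 other JAK and STAT genes, 6 fell and 1, Stat5b, rose for each allele, while Stat5a did not pass in either (30.3% and 26.4% of all genes fell). Stat5b was named after its values were seen. Jak3 fell by 1.21 after knockout (SE 0.09, adjusted p = 1.2e-15) and by 1.07 in the mutant (SE 0.08, adjusted p = 2.4e-15), and Stat4 by 0.94 (SE 0.15, adjusted p = 1e-06) and 1.22 (SE 0.14, adjusted p = 6.7e-10). Stat4 was low, with means of 4.69 CPM after knockout and 4.93 in the mutant.

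Among 15 inhibitors of the route, 5 rose and 7 fell after knockout (31.3% and 30.3% of all genes). In the mutant 5 rose and 5 fell (28.6% and 26.4% of all genes). Ptpn6, a phosphatase gene, fell for both alleles (-1.002, SE 0.09, adjusted p = 1.1e-12, and -0.49, SE 0.08, adjusted p = 9e-07). Socs1, a relative of Socs3, fell after knockout (-0.54, SE 0.18, adjusted p = 0.0087), a call lost without knockout replicate 1 (-0.45), and did not pass in the mutant (-0.08, SE 0.13, adjusted p = 0.64). In the double knockout against the knockout Socs1 rose by 1.10 (SE 0.17, adjusted p = 5.7e-07), whereas Socs3 stood at -0.01. Socs1 was low, at 2.52, 2.51 and 3.37 CPM in the knockout and 6.73, 5.56 and 6.33 in the double knockout.

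Other target genes of LIF and STAT3 moved in both directions. Of 10 tested, 4 rose and 5 fell after knockout (31.3% and 30.3% of all genes). In the mutant 3 rose and 3 fell, near the shares over all genes (28.6% and 26.4%). Gbx2, a homeobox gene induced by STAT3, was at 35.9, 38.1 and 35.9 CPM in the untreated knockout line and 5.76, 7.27 and 5.66 after knockout (-2.59, SE 0.12, adjusted p = 5.3e-22), and it fell less in the mutant (-1.18, SE 0.11, adjusted p = 5.2e-12). The untreated C91A line started lower, at 20.1, 18.9 and 20.4 CPM. The double knockout gave 40.4, 33.5 and 36.7 CPM, near the untreated knockout line (2.60 against the knockout, SE 0.12, adjusted p = 5.5e-22). Klf4, a pluripotency factor downstream of STAT3, changed in the same directions, with -0.69 (SE 0.05, adjusted p = 2.6e-16), -0.39 (SE 0.05, adjusted p = 5.4e-09) and 1.21 (SE 0.05, adjusted p = 2.9e-24). Its double knockout mean, 354 CPM, was however above that of the untreated knockout line, 248 CPM. The knockout mean, 153 CPM, was still above that of wild type, 105 CPM (0.54, SE 0.05, adjusted p = 1.1e-12). Myc fell after knockout (-1.39, SE 0.11, adjusted p = 5.5e-14), stood at 0.00 (SE 0.10, adjusted p = 0.98) in the mutant and rose from the single to the double knockout (1.46, SE 0.11, adjusted p = 1.5e-14).

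Cebpd, a gene of the C/EBP family that STAT3 activates, took the other course, with 0.67 after knockout (SE 0.17, adjusted p = 0.00051), 1.03 in the mutant (SE 0.14, adjusted p = 3.6e-08) and -0.80 between single and double knockout (SE 0.17, adjusted p = 0.00011). Its level was low, with group means from 4.68 CPM in the double knockout to 14.2 in the mutant. Pim2, the remaining gene of the Pim family, rose after knockout (0.30, SE 0.09, adjusted p = 0.004), a call lost without knockout replicate 1 (0.11), and stood at 0.15 in the mutant (SE 0.08, adjusted p = 0.10). From the single to the double knockout it fell (-1.001, SE 0.10, adjusted p = 7.1e-12), by about as much as Pim1.

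**Figure D5:**
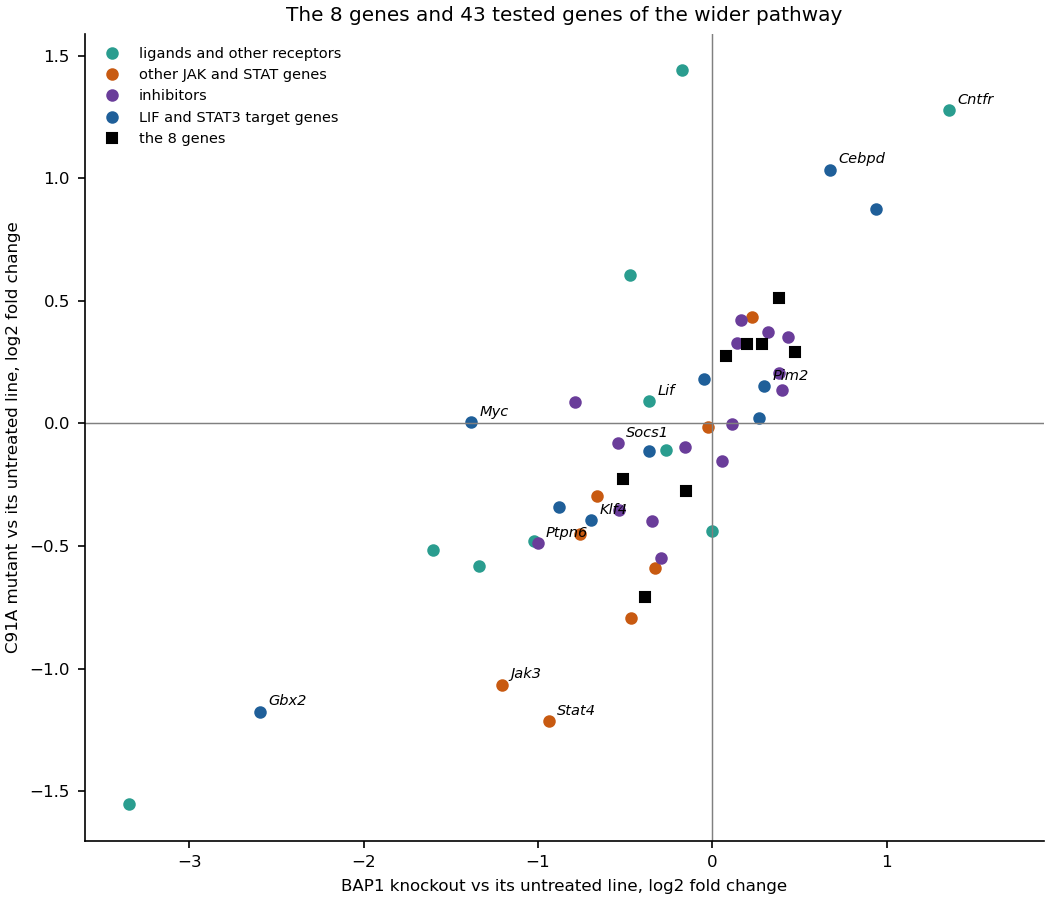
Log2 fold changes after BAP1 knockout (horizontal) and in the C91A mutant (vertical), each against its own untreated line, for the 8 genes and the 43 other tested genes of the pathway. Gbx2, at -2.59 and -1.18, and Cntfr, at 1.36 and 1.28, lie far outside the range of the 8 genes, which runs from -0.51 to 0.48 and from -0.71 to 0.51. The lowest horizontal value, -3.34, belongs to an unlabelled ligand or receptor gene too low in level for the naming rule.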

How the data were processed

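RNA-seq libraries of mouse embryonic stem cells were grouped by their source labels. Per the labels' protocols, polyadenylated RNA was isolated with RNeasy kits and DNase and made into TruSeq v2 libraries, read as single 50-base reads. Per the submitters' processing notes, GSNAP (version not given) and GRCm38 were used; whether strand was used to count reads was not given in the sources used here. The authors deposited, for each Entrez gene, a read count and an RPKM value. The deposited RPKM, scaled by the authors with a size factor per library of origin not given in the sources used here, was used only to compare levels between genes.

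Counts were filtered with filterByExpr (16875 genes left), scaled by TMM and tested 2-sided with edgeR 4.0.16 (quasi-likelihood test) under R 4.3.3 and limma 3.58.1. All 18 libraries entered 1 fit with a mean for each group, 12 residual degrees of freedom, and Benjamini-Hochberg adjusted p under 0.05. SE was derived as |log2 fold change| / √F. The 9 comparisons were each treated line against its untreated line, the difference of those effects, double knockout against knockout, and 5 groups against wild type. In a simulation of knockout against its untreated line over 16437 genes, 75.3% of 97 genes changed by 0.5 (log2) and 96.1% of 103 changed by 1 were recovered. The changed genes all had a mean above 2 CPM. Only 200 genes were changed in it, whereas 61.6% of tested genes passed in the data, so these recoveries need not hold there. Pairs of libraries within a group differed by more than sampling noise (chi-square over degrees of freedom 1.77 to 5.78), and each counted as a replicate. Medians over all genes moved by at most 0.03 (log2).

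Named genes were the 8, Bap1, Rnf2, Lif, and every gene of the 4 pathway lists with mean log2 CPM of at least 2 that was called with an absolute log2 fold change of at least 1 in an allele comparison or in double knockout against knockout. Motifs were searched as letters in the RefSeq windows. The members and lists were chosen with earlier results of these data known. Alternatives were DESeq2 1.42.0, the authors' size factors, no filter, at least 1 CPM in at least 3 libraries, only the groups compared, libraries thinned to 8.107 M counts (M, mega), and each library left out in turn.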

Additional observations from a re-analysis of the deposited data

Results flagged for a closer look

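Some genes changed by different amounts after BAP1 knockout and in the C91A mutant, by the test of the difference itself (knockout effect minus mutant effect, log2, edgeR). Among the 8 genes these were Lifr at 0.32 (SE 0.10, adjusted p = 0.013), Il6st at -0.28 (SE 0.07, adjusted p = 0.0036) and Stat3 at 0.19 (SE 0.07, adjusted p = 0.039). Il6st lost the call at equal depth (adjusted p = 0.054), and Stat3 lost it in 10 of 18 alternatives. Among the other pathway genes named, Gbx2 differed by -1.42 (SE 0.17, adjusted p = 2.6e-08) and Myc by -1.39 (SE 0.15, adjusted p = 2.5e-09), both with the more negative change after knockout. Untreated Gbx2 means were unequal, at 36.6 CPM in the knockout line and 19.8 in the C91A line. They ended at 6.23 after knockout and 8.72 in the mutant. Ptpn6 differed by -0.52 (SE 0.12, adjusted p = 0.0012) and Klf4 by -0.30 (SE 0.07, adjusted p = 0.00085). Klf4 nevertheless ended higher after knockout, at 153 CPM, than in the mutant, at 101, from untreated means of 248 and 133. Lif differed by -0.45 (SE 0.17, adjusted p = 0.044), a call lost when any of 7 single libraries was left out (-0.47 to -0.33). That call was also lost with DESeq2 (adjusted p = 0.063), and in edgeR with the authors' size factors (adjusted p = 0.052) or at equal depth (adjusted p = 0.057). Over all genes 25.9% differed between the alleles.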

How the results depend on the processing

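Of the 72 results for single members (8 genes in 9 comparisons), 55 passed the threshold. Of these, 45 passed under every alternative run and 10 lost the call in at least 1; of the 17 that did not pass, 3 passed in at least 1. None changed sign while passing. Counts of all genes called stayed within 1.5 times. Members lower than wild type in the double knockout numbered 2, and 1 with DESeq2, the authors' size factors, no filter, the 1 CPM filter, only the groups compared or equal depth (1 to 2 with a library left out), Jak2 being lost. Those lower in the untreated C91A line numbered 2, and 1 with the authors' size factors, no filter, only the groups compared or equal depth (1 to 1 with a library left out), Jak1 being lost. For the difference between the alleles' effects, members higher numbered 2, and 1 without the filter (1 to 2 with a library left out). Members lower there numbered 1, and 0 at equal depth (1 to 2 with a library left out). No paired analysis was possible because the labels carry no replicate numbers. Those used here were assigned to the libraries of a group in the order of the samples in the series. Depth limits Jak2 most, at 69 to 315 counts per library, and changes in transcript level do not measure STAT3 protein or its phosphorylation.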
